A study of Drosophila melanogaster with 12 samples.

Results

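Heads of adult *Drosophila melanogaster* were ground after a heat shock, and a portion of each lysate was set aside before RNA immunoprecipitation (IP). The 6 libraries made from these portions, the inputs, are described here out of the 12 libraries of the series, and the other 6 are the IPs. They were chosen by their labels alone: inputs 4, 5 and 6 belong to the IPs with an antibody against the FLAG tag (FLAG inputs), and inputs 1, 2 and 3 to the IPs with an antibody against the splicing factor Caper (Caper inputs). Every library carried the genotype Hsp70Gal4 x UASCaperFlag, in which the promoter of a heat shock gene drives Gal4 and, through it, FLAG-tagged Caper. All flies were held at 37 °C for 2 h and then at 30 °C overnight, so the inputs share the heat shock, the recovery and the overexpression, and heads without them are not analysed here. The labels give neither age nor sex. No source used here says how many heads went into each lysate or whether the libraries came from separate flies, so p-values measure only the spread between these libraries, which may be technical.

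The adult head holds the compound eyes, the brain, muscle, fat body, cuticle and blood cells, and its RNA mixes all of these. Photoreceptors carry very large amounts of mRNA for rhodopsin and for the proteins that pass on and end the light response. The fat body, the insect counterpart of liver and adipose tissue, makes yolk proteins in females, storage proteins and immune peptides. A heat shock activates the transcription factor Hsf, which switches on the genes of the Hsp70 and small heat shock protein families, and their mRNAs decay during recovery. Libraries were made from total RNA with probes that remove ribosomal RNA, so RNAs without a poly(A) tail were also present.

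The level of a gene below is its RPKM, that is its count per exon kilobase and library total, with totals scaled by the TMM method (which assumes that most genes do not differ). Values given in threes are inputs 4, 5 and 6 for FLAG and inputs 1, 2 and 3 for Caper. The inputs held 9615414 to 12579559 counts and the IPs 20431211 to 34264177. Counts came only from reads with 1 place in the genome. Of the alignments listed, 71.7% to 75.3% in the inputs and 21.8% to 40.9% in the IPs mapped to several places and were not counted, so RNAs with near-identical copies are undercounted. In bulk RNA, fewer cells of a type and less RNA per cell cannot be told apart.

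The head inputs detected a broad transcriptome. Of 17612 genes in the table, 9645 had a mean level of at least 1 over the 6 inputs, and 8997 of these were protein-coding and 350 long non-coding. Single inputs had 9512 to 9886 genes at or above this level. A mean level of 10 was reached by 5081 genes, 100 by 532 and 1000 by 59. The median level of the protein-coding genes at or above 1 was 11.5. The 10 genes with the most counts took 14% to 18.3% of an input.

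Photoreceptor RNA led the protein-coding genes. *ninaE*, which encodes the rhodopsin of the outer photoreceptors (chromosome 3R, 19886255 to 19888206, minus strand, dmel_r6.36), had levels of 14000.0, 13421 and 13225 in the FLAG inputs and 12871, 14373 and 16180.0 in the Caper inputs. It was the highest of the protein-coding genes in all 6 libraries, and the highest input exceeded the lowest by 1.26 times. *Arr2*, the arrestin that ends the light response, stood at 4041, 3702 and 4194 in the FLAG inputs and 3926, 4559 and 4969.6 in the Caper inputs. *trp*, the main light-activated calcium channel, stood at 1576, 1269 and 1523 in the FLAG inputs and 1233, 1678 and 1921 in the Caper inputs. The photoreceptor list holds 29 genes, among them *Cam* and *retinin*, which are not particular to photoreceptors. All 29 had a mean level of at least 1. Their levels summed to 28321, 26905 and 27630.1 in the FLAG inputs and 27137, 30578 and 32002 in the Caper inputs, a range of 1.19 times, with the sets overlapping. *Rh4* and *Rh3*, opsins of the inner photoreceptors R7, ranged over 555 to 774 and 509 to 636, so the labelled tissue carried the RNA of outer and inner photoreceptors.

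*Arc1* came next after *ninaE*. It encodes a protein related to retroviral Gag that forms capsids and carries its own mRNA between cells. Its levels were 7750.0, 3847 and 5451 in the FLAG inputs and 3379, 6612 and 7164 in the Caper inputs. Inputs 5 and 1 were the lowest and the highest exceeded the lowest by 2.29 times, so the gene varied far more than *ninaE*. Below it came ribosomal protein genes and genes of energy metabolism. *RpL41* stood at 6419.7, 4801 and 5685 in the FLAG inputs and 4979, 5635 and 6337 in the Caper inputs. *sesB*, the mitochondrial ADP/ATP carrier, stood at 2394, 2249 and 2317 in the FLAG inputs and 2166, 2365 and 2553 in the Caper inputs, within 1.18 times of each other. The translation elongation factor *eEF1alpha1* ranged over 1746 to 2194 and *ATPsynC*, subunit c of the mitochondrial ATP synthase, over 1579 to 1866. Of 44 protein-coding nuclear genes with a mean level of at least 1000, 28 encoded cytosolic ribosomal proteins. *Nplp3*, a precursor of neuropeptide-like peptides, ranged over 1398 to 2797 and *CG7203* over 1299 to 2014, both lowest in Caper input 3. In the order of the 15 highest protein-coding genes, 13 of 14 neighbouring pairs had ranges over the inputs that overlapped. The exception was the step below *ninaE*. Overlapping ranges do not settle the order within a library. *RpL41* lay above *Arr2* in every input, whereas *Arc1* lay above *RpL41* in some inputs and below it in others.

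**Figure D1:**
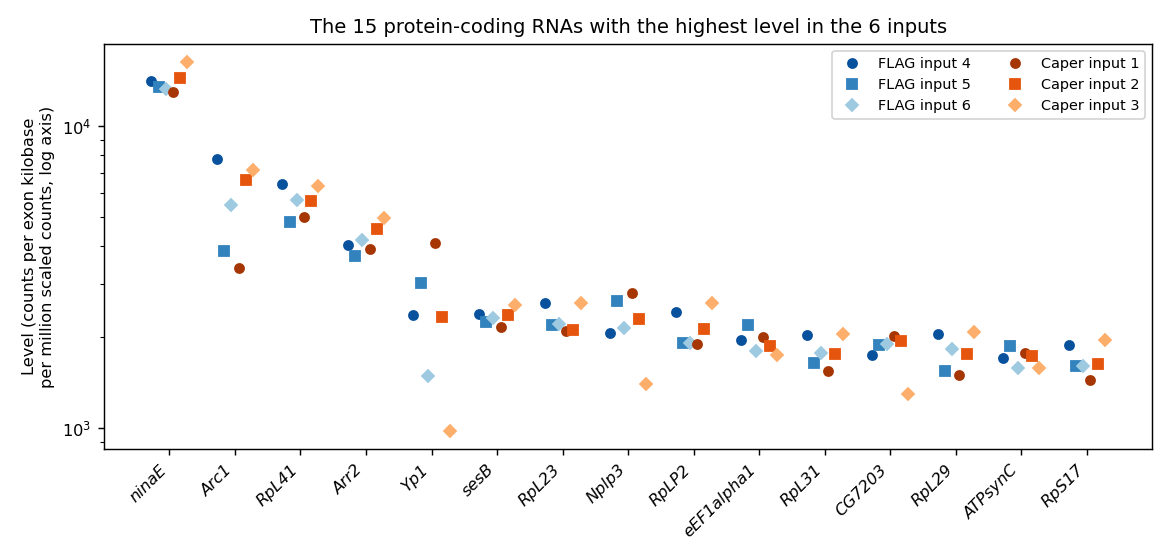
Level of the 15 highest nuclear protein-coding genes of at least 300 exon bases in each input, on a log axis, with 1 point per library (blue, FLAG inputs 4 to 6, and orange, Caper inputs 1 to 3). *ninaE* lies above all others in every library, and the *Yp1* points spread over 4.19 times.

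Several non-coding RNAs exceeded most mRNAs. The RNA subunit of RNase MRP, a ribonucleoprotein that cuts ribosomal RNA precursors, had levels of 21211, 19087 and 19692 in the FLAG inputs and 17474, 23179.5 and 25024 in the Caper inputs. The 7SK RNA *snRNA:7SKa*, which holds the elongation factor P-TEFb inactive, had levels of 10002, 7918 and 8025 in the FLAG inputs and 7878, 10646 and 11912 in the Caper inputs. The long non-coding RNA *lncRNA:noe* reached 11164, 8857 and 9679 in the FLAG inputs and 8886, 10336 and 12009.9 in the Caper inputs. *lncRNA:CR34335* ranged over 4271 to 6094 and *lncRNA:mimi* over 514 to 721. From the mitochondrial genome, the large ribosomal RNA had levels of 57204, 50152 and 48309 in the FLAG inputs and 53552, 62412 and 67546 in the Caper inputs, and the highest mRNA, *COX3*, 3505, 3189.8 and 3161 in the FLAG inputs and 3476, 3596 and 3483 in the Caper inputs. The library probes remove ribosomal RNA, and whether they cover the mitochondrial ones is not given. Levels of mitochondrial ribosomal RNA may therefore be only what was left after removal. Taken by counts, protein-coding genes held 85.9% to 89.2% of an input, the mitochondrial genome 7.37% to 9.66%, long non-coding RNAs 1.91% to 2.37% and small structural RNAs 1.47% to 1.99%.

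Markers of the brain and its support cells were uniform between the inputs. All 26 neuronal markers found in the table had a mean level of at least 1, and their sum was 2468, 2656 and 2498 in the FLAG inputs and 2602, 2540.4 and 2631 in the Caper inputs. The highest sum exceeded the lowest by 1.08 times. *nSyb*, the neuronal synaptobrevin, ranged over 404 to 463, the vesicle calcium sensor *Syt1* over 133 to 153 and *Gad1*, which makes GABA, over 91.3 to 116. All 17 glial markers were above 1 as well, with sums of 898, 976 and 909 in the FLAG inputs and 1003, 974.6 and 854 in the Caper inputs. *repo*, the transcription factor that defines most glia, ranged over 15.2 to 19.6, and the glutamine synthetase *Gs2* over 357 to 423. The 34 nuclear genes of oxidative phosphorylation varied least of all lists, with sums of 13808, 13645 and 13733 in the FLAG inputs and 13872, 14124 and 13552 in the Caper inputs, a range of 1.04 times. The 22 muscle genes summed to 6914, 7876 and 7358 in the FLAG inputs and 7445, 7034 and 6699 in the Caper inputs, of which the muscle actin *Act57B* ranged over 1399.8 to 1938 and the myosin heavy chain *Mhc* over 432 to 595.

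Fat body RNA was abundant and differed between inputs of the same set. The 25 fat body genes summed to 6787, 7388 and 4088 in the FLAG inputs and 9149, 6447 and 3464 in the Caper inputs, a range of 2.64 times. Caper input 1 was the highest and Caper input 3 the lowest, with FLAG input 6 second lowest. *Yp1*, a yolk protein gene (chromosome X, 10053811 to 10055498, plus strand), had levels of 2363, 3027 and 1484 in the FLAG inputs and 4105, 2336 and 980.1 in the Caper inputs. *Yp2* followed with 706, 827 and 364 in the FLAG inputs and 1176, 653 and 276 in the Caper inputs. *Yp3* was 895, 842 and 491 in the FLAG inputs and 1123, 778 and 415 in the Caper inputs. For all 3 genes, Caper input 1 lay above every other library and Caper input 3 below every other. The larval serum protein genes *Lsp2* and *Lsp1beta* differed in part from this order, with *Lsp2* at 1077, 781 and 393 in the FLAG inputs and 672, 843 and 576 in the Caper inputs, highest in FLAG input 4. *Lsp1beta* stood at 471, 669 and 237 in the FLAG inputs and 597, 512 and 262 in the Caper inputs, highest in FLAG input 5. *FASN1*, a fatty acid synthase, showed 121, 203 and 116 in the FLAG inputs and 271, 163 and 80.5 in the Caper inputs, again with Caper inputs 1 and 3 at the ends. *apolpp*, the apolipoprotein of the main lipid carrier in the hemolymph, had 130.01, 141 and 128 in the FLAG inputs and 187, 132 and 76.6 in the Caper inputs. Between sets, the log2 fold change of *Yp1*, FLAG inputs over Caper inputs, was -0.11 (95% interval -1.19 to 0.97), an interval wide enough to leave its direction undetermined. Yolk protein RNA marks females, and the roX RNAs of male dosage compensation were present too: *lncRNA:roX1* ranged over 144 to 208 and *lncRNA:roX2* over 49.1 to 63.5. The roX sums were 271, 235 and 259 in the FLAG inputs and 193, 219 and 267 in the Caper inputs, lowest in Caper input 1, where the *Yp1* level was highest. The summed level of 18 testis genes was also highest in Caper input 1, at 87.1. The part of sex in these values was not tested.

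Heat shock genes were detected after the overnight recovery at levels far below those of the most abundant RNAs. *Hsp83*, the Hsp90 chaperone, was 224, 138 and 227 in the FLAG inputs and 158, 241 and 235 in the Caper inputs, and inputs 5 and 1 were the lowest. Mitochondrial *Hsp60A* ranged over 118 to 156 and the Hsp40 cochaperone *DnaJ-1* over 61.4 to 94.0. *Hsp68*, an inducible Hsp70 relative, had levels of 22.5, 7.94 and 13.3 in the FLAG inputs and 10.2, 15.7 and 18.1 in the Caper inputs, with FLAG input 4 the highest and FLAG input 5 the lowest. The Hsp70 genes are near-identical copies whose shared reads were not counted, so their levels are lower limits. *Hsp70Bb* stood at 52.3, 30.1 and 26.8 in the FLAG inputs and 27.1, 37.6 and 37.1 in the Caper inputs. *Hsp70Ab* reached 9.06, 2.34 and 2.25 in the FLAG inputs and 2.31, 3.95 and 4.16 in the Caper inputs, and again FLAG input 4 stood above the others. Of the constitutive chaperones, *Hsc70-4*, a cytosolic Hsp70 relative made without heat shock, ranged over 556 to 735. The long non-coding stress RNA *lncRNA:Hsromega* ranged over 24.3 to 34.5.

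Of 12 small heat shock protein genes, 10 had a mean level of at least 1. The highest was *l(2)efl*, at 155, 110.3 and 175 in the FLAG inputs and 96.3, 134 and 124 in the Caper inputs. *Hsp23* had 104, 23.4 and 19.8 in the FLAG inputs and 23.0, 36.5 and 44.8 in the Caper inputs. FLAG input 4 was far above the other libraries for this gene. *Hsp26* stood at 49.6, 27.7 and 19.5 in the FLAG inputs and 19.4, 22.8 and 29.2 in the Caper inputs, highest in the same library. *Hsp27* was even, at 4.37 to 5.44. *Hsp22* is listed at 0 in all libraries, but 100% of its exon bases are shared with another gene on the same strand, and 90.1% of those of *CG4456*, listed at 0 to 0.0477. Reads that fall in 2 genes were not counted, so neither value is a level. The list summed to 567.6, 436 and 496 in the FLAG inputs and 428, 429 and 418 in the Caper inputs.

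Immune genes varied more than most genes. The median residual SD of the antimicrobial peptide genes tested was 0.48 on the log2 scale, beside 0.18 over all genes. The highest levels among them were those of Bomanin peptide genes, which are induced by infection, with *BomS3* at 525, 415 and 498 in the FLAG inputs and 339, 494 and 439 in the Caper inputs. *BomS2* stood at 536, 450.2 and 459 in the FLAG inputs and 329, 441 and 406 in the Caper inputs, and Caper input 1 was the lowest of the 6 for both. Low-level members spread more widely. *DptA*, an antibacterial Diptericin gene, had 7.45, 0.811 and 2.64 in the FLAG inputs and 0.554, 3.03 and 0.663 in the Caper inputs, highest in FLAG input 4. *AttC*, an Attacin gene, had 8.11, 1.61 and 3.47 in the FLAG inputs and 1.63, 1.04 and 2.74 in the Caper inputs, also highest there. *IBIN*, induced by infection, had 9.15, 13.4 and 1.76 in the FLAG inputs and 5.62, 7.82 and 7.58 in the Caper inputs, highest in FLAG input 5. *Drs*, the antifungal peptide Drosomycin, ranged over 49.2 to 95.4. *TotM*, a humoral stress gene of the Turandot family, was 717, 341 and 672 in the FLAG inputs and 270.1, 552 and 458 in the Caper inputs, and *TotA* of the same family 498, 525 and 640.1 in the FLAG inputs and 354, 569 and 302 in the Caper inputs. *MtnA*, a metallothionein, ranged over 606 to 887. *GstD1*, a glutathione S-transferase of detoxification, stood at 463, 203 and 261 in the FLAG inputs and 219.6, 339.9 and 315 in the Caper inputs, highest in FLAG input 4. *Xrp1*, a bZIP transcription factor of stress responses, had 485, 783 and 402 in the FLAG inputs and 498, 504 and 418 in the Caper inputs, and FLAG input 5 stood above the other inputs.

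Caper itself was measured together with its transgene, since exon counts do not separate the endogenous RNA from the FLAG-tagged one. *Caper* (chromosome 2L, 7032721 to 7037878, plus strand) had levels of 429.6, 326 and 215 in the FLAG inputs and 244, 350.5 and 328 in the Caper inputs. The highest input, FLAG input 4, exceeded the lowest, FLAG input 6, by 2.00 times, so the spread within the FLAG set was as wide as that over all inputs. The log2 fold change between sets was 0.07 (95% interval -0.49 to 0.64) (edgeR, adjusted p = 0.99999). Other splicing factors were lower: the U2AF subunit *U2af50* ranged over 37.0 to 46.7 and the SR protein *B52* over 35.1 to 36.9. All 25 splicing factors in the table had a mean level of at least 1, and their sum, Caper included, was 1118, 1022 and 907 in the FLAG inputs and 904, 1013 and 1032 in the Caper inputs.

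Clock genes were highest in different inputs. *tim*, a repressor of the clock that cycles in the head, had levels of 25.7, 15.98 and 32.6 in the FLAG inputs and 15.3, 22.8 and 40.8 in the Caper inputs. *vri*, a cycling repressor of *Clk*, had 41.7, 24.7 and 39.1 in the FLAG inputs and 20.4, 32.6 and 45.2 in the Caper inputs. Caper input 3 was the highest of the inputs for both genes, and Caper input 1 the lowest. *Clk*, the activator, had 17.02, 21.4 and 15.01 in the FLAG inputs and 19.5, 17.1 and 12.6 in the Caper inputs, with FLAG input 5 highest and Caper input 3 lowest. *cry*, the blue light receptor of the clock, had 46.3, 54.4 and 47.1 in the FLAG inputs and 66.0, 53.7 and 35.5 in the Caper inputs, with Caper input 1 highest and Caper input 3 lowest. *cyc*, the partner of *Clk*, was even at 15.8 to 17.3. The time at which each input was collected is not given in the sources used here, and its part in these values was not tested. The 14 clock genes together summed to 425, 418 and 438 in the FLAG inputs and 415, 419 and 461 in the Caper inputs.

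**Figure D2:**
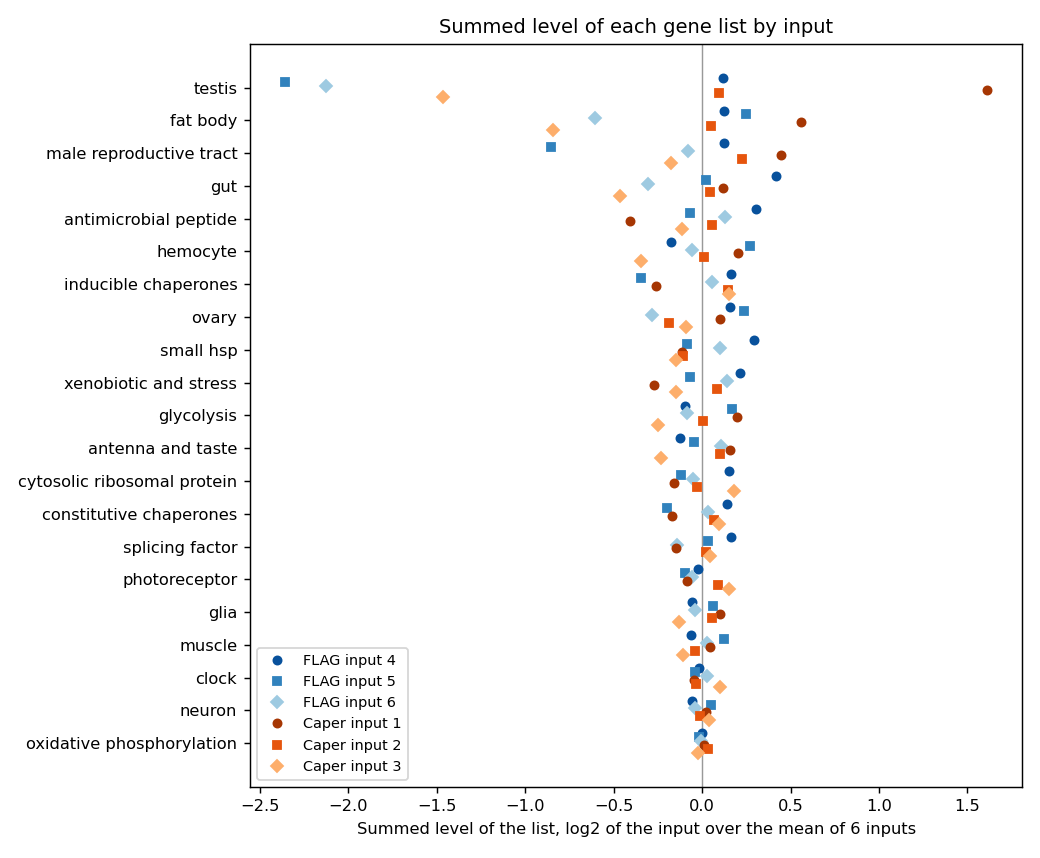
Summed level of each gene list in each input, as log2 of the input over the mean of the 6 inputs, with lists ordered from the most variable at the top to the least variable at the bottom. Testis, fat body and male reproductive tract genes spread most, and neuronal and oxidative phosphorylation genes lie within a narrow band around 0.

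Over all genes, the inputs resembled each other closely. Across the 9944 genes that passed the filter on low counts, Pearson's r of log2 CPM (counts scaled to the library total) between 2 inputs ran between 0.965 and 0.991, as a description across genes that share libraries. The biological coefficient of variation (BCV, the relative spread between replicates beyond counting error) was 0.159 around the means of the sets. The median residual SD of log2 CPM was 0.18. It was above 0.5 for 956 genes, 9.61% of those tested, and above 1 for 179. The closest pair was FLAG input 4 and Caper input 2, from different sets, with a BCV of 0.0751. The most distant pair was Caper inputs 1 and 3, of 1 set, with a BCV of 0.230. Of the 4 pairs with the lowest BCV, all joined a FLAG input to a Caper input. The BCV of every pair was above 0, so no library was a copy of another. This does not show that they came from separate flies.

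The main direction of variation crossed the sets. In a principal component analysis of the 6774 genes with a mean of at least 100 counts, the first component held 52.1% of the variance. On it FLAG input 5 stood at -16.8 and Caper input 1 at -14.03. The other inputs were at 7.15 and 5.93 for FLAG inputs 4 and 6, and at 2.53 and 15.2 for Caper inputs 2 and 3. The second component held 18.8% and ranged from -8.11 in Caper input 1 to 9.49 in FLAG input 5. Because inputs 1 and 5 stood apart, the BCV was computed without them as well, an alternative chosen after seeing the data, and was 0.1105. Transcript length moved with these libraries in part. Genes under 500 exon bases had a median deviation from the mean of the 6 inputs of -0.23 on the log2 scale in FLAG input 5 and 0.04 in Caper input 1, and genes of 4000 or more bases 0.11 and 0.03. In FLAG input 4 the same medians were 0.09 and -0.06. The part of transcript length in the first component was not tested.

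**Figure D3:**
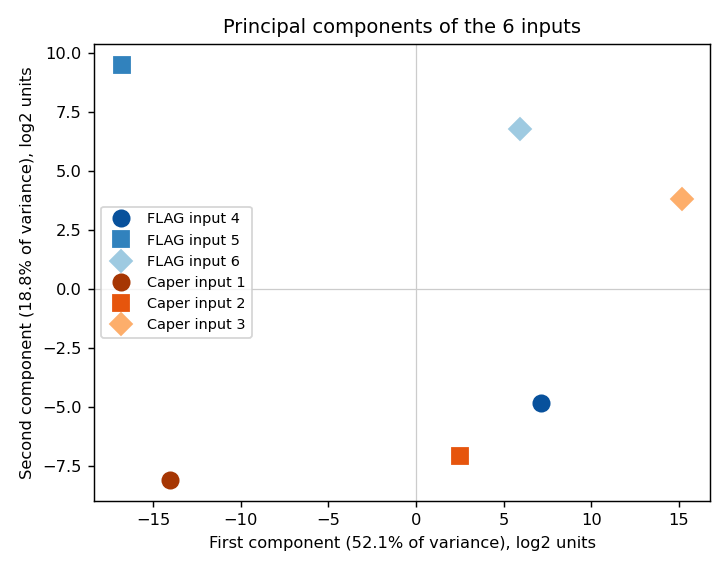
Position of each input on the first and second principal components of log2 CPM over 6774 genes, with 1 point per library. FLAG input 5 and Caper input 1 lie together on the left of the first component, and the other 4 inputs of both sets on the right.

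The genes with the largest loadings on the first component were of several kinds. On the side of inputs 5 and 1 was *Osi7*, of the cuticle-related Osiris family, at 1.44, 15.97 and 1.35 in the FLAG inputs and 3.03, 1.68 and 0.765 in the Caper inputs. FLAG input 5 was far above all others. *CG14752* showed 41.3, 127 and 11.2 in the FLAG inputs and 54.1, 27.6 and 10.5 in the Caper inputs, with inputs 5 and 1 the highest. *CG11898* followed with 3.77, 13.5 and 1.30 in the FLAG inputs and 3.50, 2.10 and 1.40 in the Caper inputs. The opposite pattern was seen for *CG13078*, at 19.5, 3.18 and 24.7 in the FLAG inputs and 6.04, 18.5 and 24.7 in the Caper inputs, where inputs 5 and 1 were the lowest. *CG15721* gave 5.81, 0.775 and 4.52 in the FLAG inputs and 1.73, 5.39 and 4.20 in the Caper inputs, with the same libraries lowest. *Cpr49Ac*, a gene of the cuticular protein family, had 84.0, 25.3 and 152 in the FLAG inputs and 25.9, 72.1 and 122 in the Caper inputs, again lowest in inputs 5 and 1. These genes set the component, so their values are a description of it.

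Among genes with a mean of at least 100 counts, *Mst57Db* and *Ebp*, both of male reproductive tissue, had the largest residual spread, followed by *Cyp4g1* and *CG4836*. *Mst57Db*, an accessory gland gene (chromosome 3R, 25830720 to 25830914, minus strand), had levels of 48.6, 0.825 and 2.06 in the FLAG inputs and 205, 56.3 and 12.7 in the Caper inputs. These rest on 100, 2 and 4 counts in the FLAG inputs and 436, 117 and 30 counts in the Caper inputs. *Ebp*, the ejaculatory bulb protein (chromosome 2R, 25175126 to 25176715, minus strand), had 4.53, 0.105 and 0.132 in the FLAG inputs and 27.5, 8.41 and 1.51 in the Caper inputs. Caper input 1 was the highest for both, Caper input 2 and FLAG input 4 were intermediate, and FLAG inputs 5 and 6 were near 0. *Cyp4g1*, the cytochrome P450 that makes cuticular hydrocarbons in oenocytes of the abdomen (chromosome X, 467057 to 469335, minus strand), had 9.94, 0.494 and 0.883 in the FLAG inputs and 57.3, 18.1 and 4.55 in the Caper inputs. *CG4836* had 2.18, 0.157 and 0.148 in the FLAG inputs and 9.30, 3.40 and 0.584 in the Caper inputs. Caper input 1 was again the highest and FLAG inputs 5 and 6 the lowest. *CG1077* differed from these, with 15.3, 12.4 and 0.743 in the FLAG inputs and 4.34, 2.94 and 2.79 in the Caper inputs, highest in FLAG inputs 4 and 5.

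Markers of testis, which the head lacks, were highest in the same library. The 18 testis genes summed to 30.9, 5.55 and 6.53 in the FLAG inputs and 87.1, 30.4 and 10.3 in the Caper inputs, a range of 15.7 times, and 11 of them had a mean level of at least 1. *Mst84Db*, a sperm tail protein gene, had 6.17, 0.388 and 0.242 in the FLAG inputs and 17.2, 4.75 and 0.991 in the Caper inputs. The testis tubulin *betaTub85D* had 1.80, 0.787 and 0.383 in the FLAG inputs and 5.42, 3.42 and 1.12 in the Caper inputs. A list of 27 genes of the male reproductive tract, put together after the variable genes were seen, summed to 963, 490.0 and 836 in the FLAG inputs and 1206, 1033 and 784 in the Caper inputs. Most of this sum was 1 gene, *EbpIII*, at 817, 487 and 830.2 in the FLAG inputs and 567, 864 and 746 in the Caper inputs, which did not follow the order of the others. The accessory gland genes *Acp98AB* and *Acp95EF* did, with 25.5, 0.460 and 0.575 in the FLAG inputs and 98.9, 26.3 and 4.23 in the Caper inputs for *Acp98AB*. *Acp95EF* stood at 15.99, 0.662 and 0.414 in the FLAG inputs and 75.8, 19.7 and 5.08 in the Caper inputs. Gut markers had sums of 28.9, 22.001 and 17.5 in the FLAG inputs and 23.5, 22.3 and 15.7 in the Caper inputs, above the testis sums in FLAG inputs 5 and 6 and in Caper input 3. The trypsin gene *alphaTry* was 3.64, 0.187 and 0 in the FLAG inputs and 3.73, 1.53 and 1.15 in the Caper inputs, high in FLAG input 4 and Caper input 1. The gut sum did not set Caper input 1 apart: it was 23.5 there, 22.001 in FLAG input 5 and 22.3 in Caper input 2. Ovary markers had sums of 26.1, 27.6 and 19.2 in the FLAG inputs and 25.1, 20.6 and 21.994 in the Caper inputs. These sums too were above the testis sums in FLAG inputs 5 and 6 and in Caper input 3. Of the 19 ovary markers, 5 had a mean level of at least 1, and *vas*, which defines the germ line, was low at 0.247 to 0.576. These values stand beside the labelled tissue, and the part of body tissue in any other result was not tested.

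**Figure D4:**
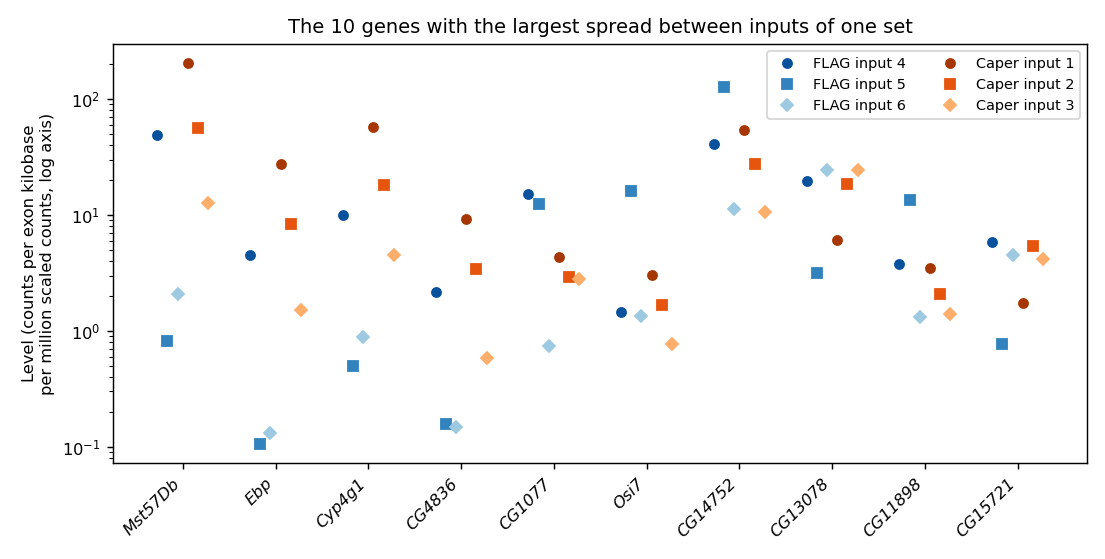
Level of the 10 genes with the largest residual spread (mean of at least 100 counts) in each input, on a log axis, with 1 point per library. For *Mst57Db*, *Ebp*, *Cyp4g1* and *CG4836* Caper input 1 is highest and FLAG inputs 5 and 6 lie lowest. For *Osi7*, *CG14752* and *CG11898* FLAG input 5 is highest.

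FLAG inputs were then compared with Caper inputs, to ask whether the 2 sets of heads started from the same RNA. No gene differed at an adjusted p below 0.05 by edgeR's quasi-likelihood test, 0 higher and 0 lower of 9944 (0% each), and an unadjusted p below 0.05 was reached by 176 genes, 64 higher and 112 lower. DESeq2 also called 0, with 107 below an unadjusted 0.05. The median absolute log2 fold change was 0.08 and the median half-width of the 95% interval 0.35. That interval lay within ±1 for 8523 genes, 85.7%, and within ±0.5 for 5662, 56.9%. Where it did not lie within ±1 it included a 2-fold difference. The libraries of the sets did not overlap for 535 genes (5.38%), 243 higher (2.44%) and 292 lower (2.94%) in FLAG inputs.

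The genes named here are the 5 largest differences in each direction among genes with a mean of at least 100 counts whose libraries did not overlap. *BomBc1*, a Bomanin gene, had 24.1, 57.4 and 22.6 in the FLAG inputs and 19.96, 18.1 and 14.4 in the Caper inputs, with a log2 fold change of 1.0 (95% interval 0.16 to 1.84). Its FLAG mean rests on FLAG input 5, and without that library the log2 fold change was 0.42. *BomS1* had 244, 212 and 206 in the FLAG inputs and 132, 173 and 173 in the Caper inputs, a log2 fold change of 0.47 (95% interval 0.18 to 0.76). *Nep6*, a neprilysin-like peptidase gene, had 5.01, 4.76 and 5.44 in the FLAG inputs and 3.99, 3.72 and 3.04 in the Caper inputs. *CG17032* had 16.1, 15.2 and 13.7 in the FLAG inputs and 11.96, 11.9 and 8.66 in the Caper inputs. *slam*, needed for membrane growth in the early embryo, had 4.97, 7.31 and 4.72 in the FLAG inputs and 3.83, 3.85 and 4.70 in the Caper inputs, and FLAG input 6 exceeded Caper input 3 only slightly. Lower in FLAG inputs was *CG12848*, at 23.4, 17.7 and 14.5 in the FLAG inputs and 25.7, 27.3 and 24.4 in the Caper inputs. No adjusted p of these genes was below 0.05 (edgeR, 0.99999 for each).

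The remaining genes with the largest differences were small nucleolar RNAs (snoRNAs), which guide the modification of ribosomal RNA. *snoRNA:Psi18S-110* guides pseudouridylation of the small-subunit RNA and had levels of 106, 97.8 and 119 in the FLAG inputs and 147, 176 and 154 in the Caper inputs, a log2 fold change of -0.56 (95% interval -0.85 to -0.28). *snoRNA:Psi18S-920* had 62.5, 57.6 and 53.5 in the FLAG inputs and 81.2, 85.9 and 87.5 in the Caper inputs, a log2 fold change of -0.55 (95% interval -0.85 to -0.25). *snoRNA:Or-aca4*, of the H/ACA type, had 274, 251 and 257 in the FLAG inputs and 325, 406 and 371 in the Caper inputs, a log2 fold change of -0.49 (95% interval -0.73 to -0.26). A further snoRNA, named only by its position (chromosome 2R, 13557700 to 13557850), had 81.6, 57.6 and 64.0 in the FLAG inputs and 119, 129.96 and 93.2 in the Caper inputs. All FLAG inputs lay below all Caper inputs for these RNAs.

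The small structural RNAs as a class were mostly on the same side. Of 301 genes 121 passed the filter, 110 of these had a log2 fold change below 0, and 47 had FLAG inputs entirely below Caper inputs (38.8%, against 2.94% of all genes tested). None lay entirely above. Their median log2 fold change was -0.34, beside 0.01 over all genes tested, and 0 passed the adjusted test. The class took 1.73%, 1.47% and 1.62% of counts in the FLAG inputs and 1.54%, 1.87% and 1.99% in the Caper inputs, shares that overlapped. Of these, all snoRNAs together took 0.217%, 0.179% and 0.219% of counts in the FLAG inputs and 0.242%, 0.245% and 0.248% in the Caper inputs, which did not overlap. The snoRNA group was singled out after its values were seen, and 3 libraries against 3 cannot reach an exact two-sided p below 0.1. Beside them, 186 protein-coding genes under 500 exon bases had a median log2 fold change of -0.0030, with 7 entirely higher and 4 entirely lower. RNAs of the mitochondrial genome had a median of -0.25 over 14 genes and 7 entirely lower. *CYTB*, a subunit of complex III, had 195, 181 and 170.1 in the FLAG inputs and 266, 231 and 220.0 in the Caper inputs, and the small mitochondrial ribosomal RNA *srRNA* 652, 570.3 and 542 in the FLAG inputs and 778, 861 and 725 in the Caper inputs. The mitochondrial mRNAs took 0.819%, 0.769% and 0.766% of counts in the FLAG inputs and 0.863%, 0.891% and 0.839% in the Caper inputs. The mitochondrial genome as a whole took 8.47%, 7.37% and 7.42% in the FLAG inputs and 8.05%, 9.15% and 9.66% in the Caper inputs, shares that overlapped. This whole includes its ribosomal RNAs, counted after a step that removes ribosomal RNA.

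**Figure D5:**
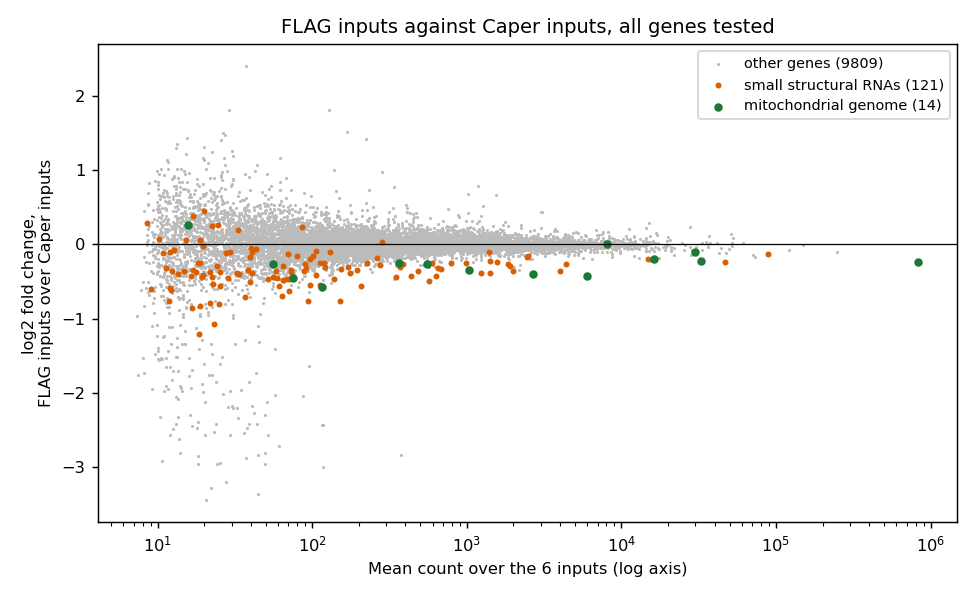
Log2 fold change of FLAG inputs over Caper inputs for each of 9944 genes against the mean count over the 6 inputs (log axis), with small structural RNAs in orange, the mitochondrial genome in green and other genes in grey. Orange points lie mostly below 0, with a median of -0.34, and the grey points below -2 at low counts include the male reproductive genes.

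No gene list had a member called between the sets. For *Mst57Db* the log2 fold change was -2.43 (95% interval -5.28 to 0.43), and ran between -5.99 without FLAG input 4 and -1.01 without Caper input 1. For *Cyp4g1* it was -2.83 (95% interval -5.46 to -0.21), between -5.31 and -1.59 without the same libraries, and neither gene was called (edgeR, adjusted p = 0.99999 for both). Antimicrobial peptide genes had a median log2 fold change of 0.47 over 17 genes tested, with 3 entirely higher in FLAG inputs and none entirely lower (2.44% and 2.94% over all genes tested). The median was -0.01 for neuronal, -0.10 for photoreceptor, -0.03 for glial and -0.0035 for ribosomal protein genes, beside 0.01 over all genes tested. Splicing factors had a median of 0.06, with 4 of 25 entirely higher in FLAG inputs (2.44% over all genes tested).

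Against the IPs, the inputs differed for a large part of the transcriptome. Of 11012 genes tested over all 12 libraries, 2478 were higher in the inputs (22.5%) and 2441 lower (22.2%) at an adjusted p below 0.05 (edgeR). The test took the mean of the difference with the FLAG antibody and that with the Caper antibody, so opposite differences cancel. With library size alone as the scale, 1664 were higher and 3437 lower, and the median log2 fold change of all genes shifted to -0.14. Levels given beside the IPs were scaled by TMM over all 12 libraries, so those of the inputs differ slightly from the values above. IPs with a control antibody are not analysed here, and an RNA lower in the inputs is only an RNA with a larger share of the IP.

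Structural RNAs set the inputs apart most. Both copies of the 7SL RNA, the RNA of the signal recognition particle, led: *7SLRNA:CR32864* had levels of 579 ± 62.0 in the inputs and 2.55 ± 0.877 in the IPs (SD, n = 6 each, log2 fold change 7.81, adjusted p = 9.21e-11). The copies are near-identical, and only uniquely placed reads were counted. The snoRNA *snoRNA:CG32479-a* had 414 ± 54.8 in the inputs and 9.25 ± 4.16 in the IPs (log2 fold change 5.55, adjusted p = 1.82e-09). The second 7SL copy, *7SLRNA:CR42652*, had 495 ± 51.0 in the inputs and 3.18 ± 0.830 in the IPs (log2 fold change 7.26, adjusted p = 9.43e-11), and *snoRNA:CG32479-b* and *snoRNA:185* followed the same pattern, with 743 ± 131 in the inputs and 23.4 ± 10.1 in the IPs for *snoRNA:185* (log2 fold change 5.01, adjusted p = 1.09e-08). *RNaseMRP:RNA* had 21952 ± 2937 in the inputs and 804 ± 214 in the IPs (log2 fold change 4.77, adjusted p = 7.03e-08). In all, 116 of 137 small structural RNAs tested were higher in the inputs and 3 lower, where 22.5% of all genes were higher and 22.2% lower. All 14 RNAs of the mitochondrial genome that were tested were higher in the inputs, among them all 12 mRNAs tested. The mitochondrial genome took 7.37% to 9.66% of counts in the inputs and 0.546% to 2.61% in the IPs, and small structural RNAs 1.47% to 1.99% in the inputs and 0.138% to 0.268% in the IPs. Neither range overlapped.

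Many nuclear genes of energy metabolism and vision were also higher in the inputs, where 22.5% of all genes were higher and 22.2% lower. Of 34 oxidative phosphorylation genes, 28 were higher in the inputs and 0 lower, with a median log2 fold change of 0.60, beside -0.0079 over all genes. Of 29 genes of the photoreceptor list 20 were higher and 2 lower, and of 20 antimicrobial peptide genes tested 11 were higher and 0 lower. *ninaE* did not pass the test, with 14685 ± 1254 in the inputs and 13670.3 ± 4503 in the IPs (log2 fold change 0.15, adjusted p = 0.301). The antibodies went opposite ways for this gene. Its levels were 11470, 9942 and 8804 in the FLAG IPs, all below the FLAG inputs (14690, 14020 and 13900). In the Caper IPs they were 14420, 16690 and 20690, each above the input of its own number (13460, 15090 and 16950). *RpL41* was higher, at 5915 ± 709 in the inputs and 1159 ± 469.8 in the IPs (log2 fold change 2.40, adjusted p = 4.81e-06), while ribosomal protein genes as a group divided into 26 higher and 10 lower of 84. Splicing factors went the other way, with 15 of 25 lower in the inputs and 3 higher. *Caper* was lower in the inputs, at 331 ± 80.7 in the inputs and 625.4 ± 158 in the IPs (log2 fold change -0.92, adjusted p = 0.00379). The stress gene *Xrp1* was lower as well, at 539.5 ± 143 in the inputs and 1919 ± 1308 in the IPs (log2 fold change -1.73, adjusted p = 8.51e-04), and *cactin*, whose protein takes part in splicing and immune signalling, at 41.3 ± 7.03 in the inputs and 146 ± 82.4 in the IPs (log2 fold change -1.75, adjusted p = 3.15e-04). *srp*, a GATA factor of blood cells and fat body, had 18.5 ± 10.03 in the inputs and 67.0 ± 64.9 in the IPs (log2 fold change -1.74, adjusted p = 0.0232). That call was lost in 6 of the fits that left out 1 library. It was kept with the replicate number as a block (edgeR, log2 fold change -1.51, adjusted p = 4.52e-04). *CG14961* had 26.6 ± 10.3 in the inputs and 99.7 ± 71.5 in the IPs (log2 fold change -1.78, adjusted p = 0.00139). *Muc96D*, a mucin gene, had 3.47 ± 0.613 in the inputs and 13.8 ± 5.78 in the IPs (log2 fold change -1.97, adjusted p = 5.99e-05).

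Length went with this contrast too. Of genes under 500 exon bases 50.9% were higher in the inputs and 3.46% lower, whereas of genes of 4000 or more bases 23.1% were higher and 29.9% lower. Of the male reproductive genes, 3 of 17 tested were higher in the inputs (22.5% of all genes), and 17 of 17 with the replicate number as a block (25.5% of all genes), which sets each IP against the input of its own number.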

How the data were processed

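RNA of 12 libraries from heads was measured, and the 6 inputs are described. Per the labels and the study's methods, reads were trimmed with fastp 0.20.1, checked with FastQC 0.11.8, aligned with STAR 2.7.6a and counted by featureCounts (Subread 2.0.1) over exons of dmel_r6.36, on 1 strand, for pairs with a mapping quality of at least 20. The values are raw counts per gene as the authors deposited them, with the exon bases of each gene as another deposited column. Names came from RefSeq (Release 6 plus ISO1 MT) for 17169 of 17612 genes by the same start and end and from the study's tables for 13, and 430 stayed unnamed.

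FLAG inputs were compared with Caper inputs, and inputs with IPs, by edgeR 4.0.16 (quasi-likelihood F test, TMM, filterByExpr with a minimum count of 10 and total of 15), with Benjamini-Hochberg adjustment over all genes tested and a threshold of 0.05. DESeq2 1.42.0 was an alternative. The software was R 4.3.3, limma 3.58.1, Python 3.11.15, numpy 2.4.6, pandas 2.3.3, scipy 1.17.1 and matplotlib 3.10.9. The test was checked on simulated data. Named genes were the 15 highest protein-coding and 5 highest other nuclear genes (at least 300 exon bases), the 10 with the largest residual spread (mean count of at least 100), and per comparison the 5 largest changes in each direction, plus list members. The members, 20 gene lists and the ribosomal protein rule were chosen with earlier results of these data known, and 3 lists (male reproductive tract, oenocyte, Osiris and cuticle) were added after the most variable genes were seen. Titles give an input and its IP the same number, and the deviations of same-numbered libraries from their group means had r = 0.770, 0.152, 0.641, 0.605, 0.649 and 0.524 for numbers 1 to 6 over 11012 genes. All are above 0.1, the limit set for pairing, although Caper IP 2 correlated more with input 3 (r = 0.565) than with input 2. Alternatives were other scalings, filters, DESeq2, nuclear protein-coding genes only, leaving out each library, and the replicate block.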

Additional observations from a re-analysis of the deposited data

Results flagged for a closer look

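In 15 of 86 sums and levels tested, 1 of the 6 inputs lay farther from the rest than Dixon's critical value of 0.625 for the gap over the range. Chance alone marks about 1 in 20 such groups, but the items are not independent and many were chosen for their spread or their difference between sets, so 15 of 86 is not to be read against that rate. Of the 15, 7 are among the 10 genes with the largest residual spread. No cause was tested.

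Caper input 1 stood above the others for 2 sums and 4 genes. The summed testis level was 87.07, against 5.553 to 30.95 in the other inputs, and the summed oenocyte level 373.7, against 214.7 to 274.2. The oenocyte list was added after the most variable genes, *Cyp4g1* among them, were seen. Its gap over the range was 0.625, at the critical value, so this sum is not a separate observation. *Mst57Db* was at 204.8 (others 0.825 to 56.3), *Ebp* at 27.49 (others 0.105 to 8.41), *Cyp4g1* at 57.35 (others 0.494 to 18.1) and *CG4836* at 9.295 (others 0.148 to 3.40).

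FLAG input 5 stood above the others for 8 genes. *Osi7* was at 15.97 (others 0.765 to 3.03), *CG14752* at 127.1 (others 10.5 to 54.1) and *CG11898* at 13.5 (others 1.31 to 3.77). *BomBc1* was at 57.43 (others 14.4 to 24.1), *slam* at 7.31 (others 3.83 to 4.97) and *CG14961* at 45.32 (others 19.5 to 23.4). *cactin* was at 53.03 (others 34.2 to 37.8) and *Xrp1* at 783.1 (others 402 to 504).

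Caper input 3 was low for 1 gene, *CG7203*, at 1299, against 1748 to 2014 in the other inputs.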

How the results depend on the processing

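No paired analysis was possible because FLAG inputs and Caper inputs share no replicate number. Between them 0 genes were called under every alternative run, with 102 to 420 genes at an unadjusted p below 0.05. The log2 fold change of *Caper*, 0.07, was -0.068 without Caper input 1 and -0.073 without inputs 1 and 5, and ran between -0.20 (without FLAG input 4) and 0.29 (without FLAG input 6) with 1 library left out. The BCV of 0.159 was 0.143 to 0.185 with 1 library left out and 0.1105 without inputs 1 and 5. The 9645 genes at a level of 1 were 10566 in TPM and 8903 with the threshold in every input. In TPM the log2 ratio of sums was 0.033 for neuronal genes (-0.029 in the scaling used) and 0.050 for oxidative phosphorylation genes (-0.012). For inputs over IPs, the fit with the replicate block called 2805 higher and 2803 lower, against 2478 and 2441 without it. Library size alone gave 1664 and 3437, and the other alternatives 2086 to 2588 higher and 2166 to 2610 lower. *srp* lost its call in 6 fits that left out 1 library and kept it with the replicate block. The causes were not tested. The counts limit low genes most: the male reproductive genes rest on few reads in FLAG inputs 5 and 6.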
